A study of Mus musculus with 6 samples.

Results

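The genes described here are 33 genes of the unfolded protein response and the integrated stress response, measured in mouse hippocampus infected with a knockdown virus for SFRS8 (gene Sfswap), a regulator of splicing. They were chosen by name, with earlier results of these data known, and all 33 were found among the 30707 genes of the deposited table. They fall into 14 chaperones and folding enzymes induced by ATF6 and XBP1, 6 genes of ER-associated degradation (ERAD), 5 stress sensors and transcription factors, and 8 targets of the PERK/ATF4 branch. The knockdown group held 3 samples that received the knockdown virus and the control group 3 samples that received a control virus, so all 6 had been infected. Strain, sex, age, the type of virus, the interval after infection and whether samples are separate animals were not stated in the labels used here. P-values therefore reflect only the scatter among these samples, and that scatter may be technical.

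Proteins that enter the endoplasmic reticulum (ER) are folded there by chaperones, and a surplus of unfolded protein is sensed by IRE1 (gene Ern1), ATF6 and PERK (gene Eif2ak3). IRE1 splices Xbp1 mRNA and ATF6 is cut in the Golgi; the resulting factors bind promoters with the ER stress response element and induce chaperones and ERAD genes. PERK phosphorylates eIF2α, which lowers general translation but favours that of ATF4, and ATF4 induces genes of amino acid supply together with Ddit3 (CHOP) and Trib3. Other eIF2α kinases feed into the same ATF4 arm, so that the arms can be induced separately.

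Values are FPKM, the authors' fragments per kilobase of exon, scaled to library size, and are therefore levels per length. The libraries held between 16622948 and 18097344 reads, as recovered from the FPKM values. The test, limma on log2(FPKM + 1), took the 14012 genes that averaged 1 FPKM or more, and a gene was called at a Benjamini-Hochberg adjusted p under 0.05. Log2 fold changes subtract control from knockdown on that scale; for low genes the added 1 makes them too small. Sfswap itself had 9.79, 11.3 and 9.58 FPKM in the knockdown samples, against 16.7, 18.5 and 19.2 FPKM in the control samples (log2 fold change −0.77, SE 0.09, adjusted p = 0.0432). Prox1, which marks dentate granule cells of the hippocampus, stood at 11.7 to 18.0 FPKM in knockdown samples and at 12.5 to 15.7 FPKM in control samples. It is 1 gene and does not settle the label of hippocampus.

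The ER chaperones and folding enzymes mostly stood higher in the knockdown hippocampus, by up to 1.85-fold, while the targets of ATF4 lay on both sides of the controls. Of the 33 members 32 reached 1 FPKM and were tested. Pdia3 and Edem1 rose, and no member was called lower. Of all genes tested, 1.20% were called higher and 0.228% lower. Groups did not overlap for 18 members with higher and 2 members with lower knockdown values, where 18.0% and 11.8% of all genes tested had such values. At an unadjusted p under 0.05, 16 members were higher and 2 lower, where 15.7% and 7.98% of all genes tested were. The median log2 fold change was 0.47 over the chaperones, 0.27 over the ERAD genes, 0.21 over the sensors and factors and 0.14 over the 7 tested ATF4 targets, against 0.02 over all genes tested. The smallest p of the two-sided exact permutation test of 3 samples against 3 is 0.1, and it was reached by each of the 20 members whose groups did not overlap. In bulk tissue, fewer cells of a type and less RNA per cell, or the converse, cannot be told apart.

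**Figure D1:**
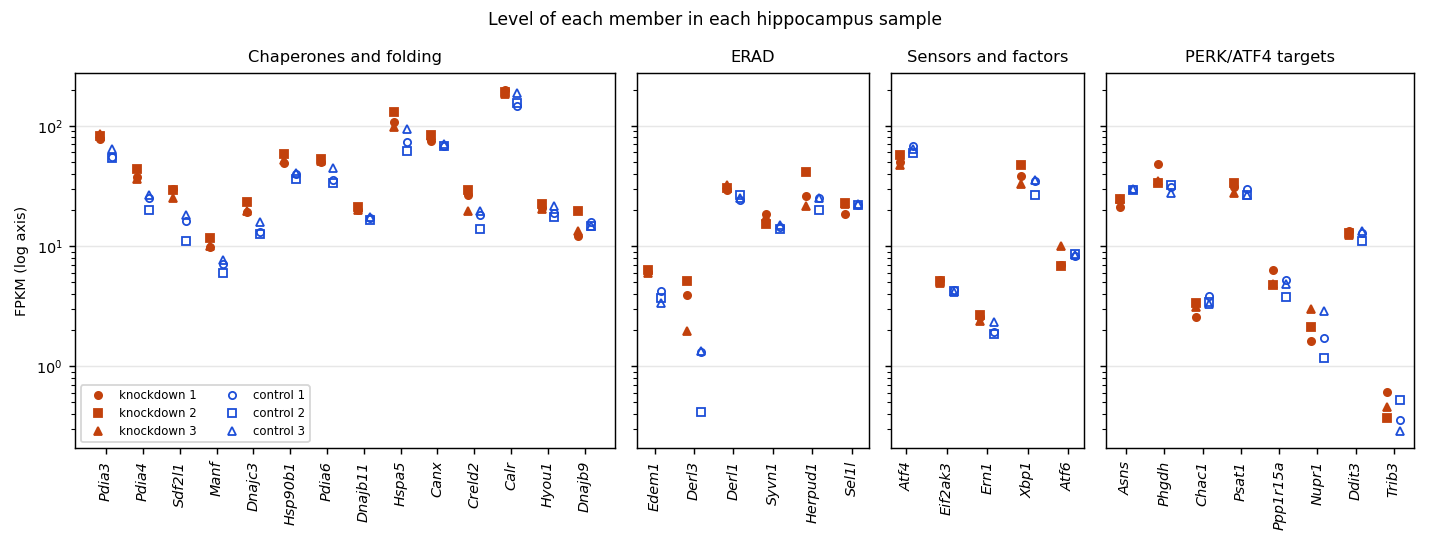
FPKM of each of the 33 members (log axis) in the 3 knockdown samples (filled) and the 3 control samples (open), by role and, within a role, in order of p. Among the chaperones the filled symbols sit above the open ones for 11 of 14 genes, whereas those of Atf4 and Asns sit below. Of all genes tested, 18.0% had such higher and 11.8% such lower knockdown values.

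Pdia3 (ERp57), a disulfide isomerase that works on glycoproteins held by calnexin and calreticulin, was the chaperone called. The gene lies at chr2:121413775-121438687 on the plus strand of mm10. Its level was 78.3, 82.8 and 86.0 FPKM in knockdown samples 1 to 3, against 55.4, 54.3 and 64.1 FPKM in control samples 1 to 3. It rose 1.42-fold, with a log2 fold change of 0.50 (SE 0.09, adjusted p = 0.0489). The value rests on 4321 to 4706 reads in each knockdown sample and 3000 to 3617 reads in each control sample. The call is a narrow one: 17 alternative settings gave adjusted p-values of 0.0319 to 0.157, and 4 of them passed.

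Pdia4 (ERp72), a disulfide isomerase, was just above the threshold (adjusted p = 0.05003). It had 37.8, 44.0 and 36.3 FPKM in the knockdown samples, against 25.02, 20.04 and 26.8 FPKM in the control samples (1.64-fold, log2 fold change 0.70, SE 0.13). Sdf2l1, a partner of the BiP cycle, showed the largest ratio among chaperones, with 29.98, 29.4 and 24.96 FPKM in knockdown samples and 16.2, 11.1 and 18.3 FPKM in control samples (1.85-fold, log2 fold change 0.87, SE 0.18, adjusted p = 0.0568). Manf, a secreted neurotrophic factor that is kept in the ER with BiP, had 9.83, 11.6 and 10.1 FPKM in knockdown samples and 7.11, 5.93 and 7.69 FPKM in control samples (1.52-fold, adjusted p = 0.0568). For each of these genes, each knockdown sample lay above each control sample.

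Hspa5 encodes BiP, the Hsp70 of the ER lumen and the best-known readout of this response. It lies at chr2:34771970-34777547 on the plus strand of mm10. Its level was 108, 131 and 98.0 FPKM in knockdown samples 1 to 3, against 73.8, 61.7 and 94.0 FPKM in control samples 1 to 3. The groups did not overlap, but knockdown sample 3 exceeded control sample 3 by only a small margin. The ratio was 1.47 (log2 fold change 0.56, SE 0.17, adjusted p = 0.118). Hsp90b1 (GRP94), the ER member of the Hsp90 family, had 48.6, 58.2 and 51.6 FPKM in knockdown samples and 39.6, 35.8 and 40.7 FPKM in control samples (1.37-fold, adjusted p = 0.0607).

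The co-chaperones of BiP did not share 1 pattern. Dnajc3 (p58IPK), a J protein that also restrains PERK, had 19.4, 23.2 and 19.4 FPKM in knockdown samples and 13.1, 12.6 and 15.7 FPKM in control samples (1.50-fold, adjusted p = 0.0569). Dnajb11 (ERdj3) averaged 20.3 ± 0.768 FPKM in knockdown samples and 16.95 ± 0.465 FPKM in control samples (SD, n = 3 each, adjusted p = 0.0916). Dnajb9 (ERdj4), a target of XBP1 that represses IRE1, had 12.2, 19.6 and 13.2 FPKM in knockdown samples and 15.7, 14.6 and 14.7 FPKM in control samples. Knockdown sample 2 was the highest of all 6 for Dnajb9 and the other two were the lowest, so the ratio of 1.00 averages values on both sides of the controls. Hyou1 (GRP170), an exchange factor for BiP, averaged 21.2 ± 1.19 FPKM in knockdown samples and 19.3 ± 2.06 FPKM in control samples (SD, n = 3 each), and its groups overlapped.

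Among the remaining folding proteins, Pdia6 (P5) averaged 51.2 ± 1.69 FPKM in knockdown samples and 37.9 ± 5.76 FPKM in control samples (SD, n = 3 each, adjusted p = 0.0812). Creld2, an ER-resident protein induced by ATF6, had 26.4, 29.1 and 19.5 FPKM in knockdown samples and 18.1, 13.98 and 19.4 FPKM in control samples, so that the nearest samples of the groups almost met (1.46-fold, adjusted p = 0.141). Of the lectin chaperones that hold glycoproteins, Canx (calnexin) stood at 1.17-fold (adjusted p = 0.131), and Calr (calreticulin), the most abundant member at 184 to 198 FPKM in knockdown samples and 146 to 186 FPKM in control samples, also at 1.17-fold with overlapping groups (adjusted p = 0.219). Of the 14 chaperones, 13 had positive log2 fold changes, as 53.2% of all genes tested did. For 11 of them each knockdown sample lay above each control sample, as for 18.0% of all genes tested. At an adjusted p under 0.1, 8 of the 14 were higher and 0 lower, where 7.02% and 2.51% of all genes tested were.

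**Figure D2:**
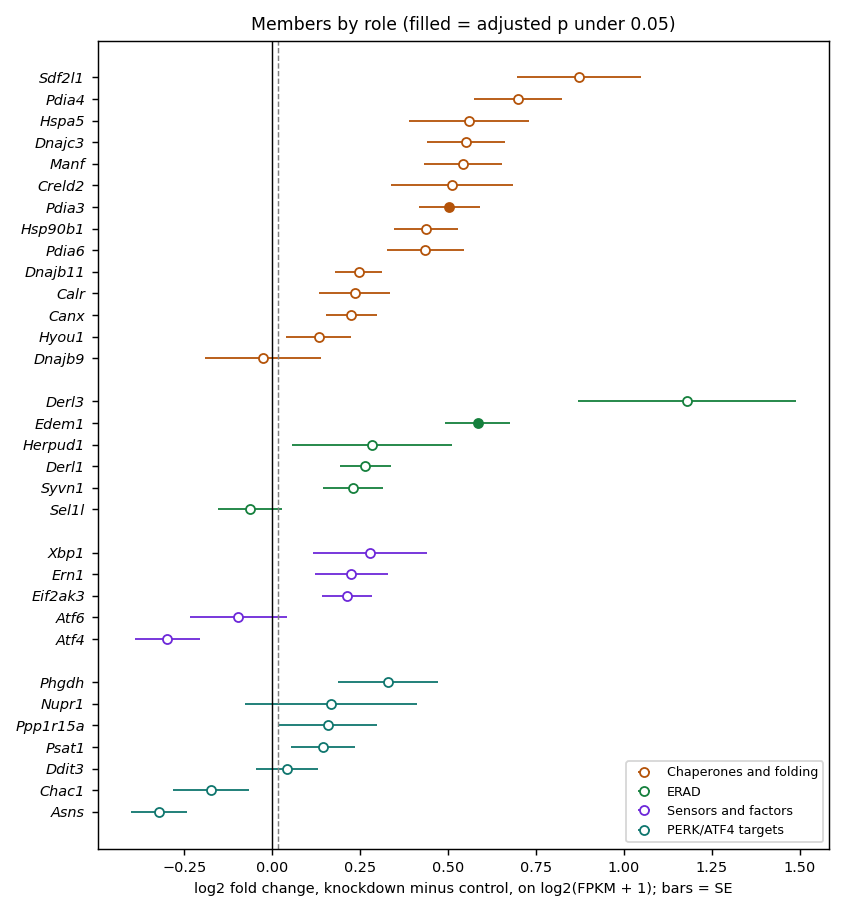
Log2 fold change (knockdown minus control, on log2(FPKM + 1)) of the 32 tested members by role, with bars for the SE and filled symbols for the members called. The dashed line is the median of all genes tested, 0.02; the chaperones run from −0.03 to 0.87 and the ATF4 targets from −0.32 to 0.33.

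Promoters of some of these chaperones carry a full match to the element that ATF6 binds. They are shown because the chaperones are the readout of that branch. RefSeq start sites (GRCm38.p6, the build of mm10) were matched for 29 of the 33 members, 12 of them chaperones, each with a window of 250 bases before and 50 bases after the start. The ER stress response element (ERSE) was searched as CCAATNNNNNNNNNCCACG on both strands. It was found in 7 of the 12 chaperone windows and in 0.119% of the 32851 promoter windows in the mouse table. These genes are members because they are known targets of ATF6 and XBP1, so the share is a description and no test was made. The 250 bases before the start of Hspa5 are given in full and stretches with 20 bases on each side of the match for 6 other chaperones, 5′ to 3′ in the direction of the gene, with the fixed letters of the ERSE in capitals:
Hspa5 (chr2:34771840-34772089, plus strand): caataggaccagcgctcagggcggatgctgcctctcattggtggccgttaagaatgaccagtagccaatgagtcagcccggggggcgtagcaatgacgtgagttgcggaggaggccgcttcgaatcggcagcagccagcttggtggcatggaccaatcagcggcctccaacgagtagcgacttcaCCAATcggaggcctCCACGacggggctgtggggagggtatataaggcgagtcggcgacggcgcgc
Hsp90b1 (chr10:86705618-86705676, minus strand): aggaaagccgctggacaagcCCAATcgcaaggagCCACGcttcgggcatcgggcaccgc
Hsp90b1 (chr10:86705513-86705571, minus strand): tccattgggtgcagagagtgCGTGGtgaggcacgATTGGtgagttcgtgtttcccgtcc
Pdia6 (chr12:17266471-17266529, plus strand): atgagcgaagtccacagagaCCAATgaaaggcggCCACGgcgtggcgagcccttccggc
Dnajc3 (chr14:118937807-118937865, plus strand): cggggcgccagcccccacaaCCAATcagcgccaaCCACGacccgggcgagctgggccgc
Creld2 (chr15:88819500-88819558, plus strand): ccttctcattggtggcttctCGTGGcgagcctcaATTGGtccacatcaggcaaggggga
Canx (chr11:50325780-50325838, minus strand): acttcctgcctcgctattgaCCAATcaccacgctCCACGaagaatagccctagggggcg
Calr (chr8:84847055-84847113, minus strand): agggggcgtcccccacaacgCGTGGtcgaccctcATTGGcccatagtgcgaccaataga

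In Hspa5 the match lies 65 to 47 bases before the start, and Hsp90b1 has 2 matches, in opposite orientations. The matches of Hsp90b1 nearest the start, Creld2 and Calr are in the reverse orientation. The log2 fold changes of the 7 genes ran from 0.22 for Canx to 0.56 for Hspa5. A full ERSE did not separate the chaperones that stood high from the others. Sdf2l1 at 0.87, Pdia4 at 0.70, Pdia3 at 0.50, Dnajb11 at 0.25 and Dnajb9 at −0.03 had no full ERSE in their windows. That says only that these letters are not there. Over the whole promoter table, 37 genes held an ERSE. Of the 28 that are not members, 8 were tested, and their median log2 fold change was 0.06, close to the 0.02 of all genes tested. In 1 of these 8, Acacb, an acetyl-CoA carboxylase, each knockdown sample lay above each control sample.

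**Figure D3:**
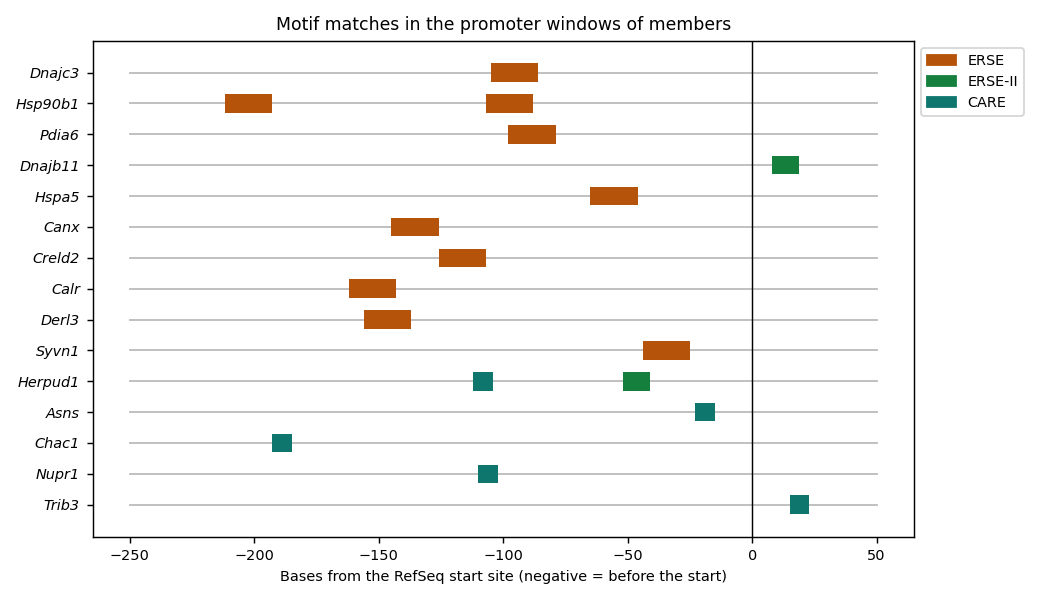
Position of each motif match in the promoter windows of the 15 members that hold one, in bases from the RefSeq start site, with ERSE in orange, ERSE-II in green and the ATF4 motif (CARE) in teal. ERSE and ERSE-II matches lie in chaperone and ERAD genes, and CARE matches in PERK/ATF4 targets and in Herpud1.

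ERAD removes proteins that fail to fold, by returning them through the membrane to the proteasome. Edem1, a lectin that hands misfolded glycoproteins to this route, rose 1.63-fold. The gene lies at chr6:108828641-108859356 on the plus strand of mm10. Its level was 6.07, 6.30 and 6.02 FPKM in the knockdown samples, against 4.26, 3.72 and 3.33 FPKM in the control samples (log2 fold change 0.58, SE 0.09, adjusted p = 0.0452). The spread among the knockdown samples was small beside the difference. In 16 alternative settings the lowest adjusted p was 0.0279 and the highest 0.148, with 4 calls.

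Derl3, a derlin of the retrotranslocation channel that is abundant in secretory cells, had 3.91, 5.13 and 1.96 FPKM in knockdown samples 1 to 3, against 1.31, 0.416 and 1.34 FPKM in control samples 1 to 3. It had the largest ratio of any member, 3.59 (log2 fold change 1.18, SE 0.31, adjusted p = 0.0862), on 68 to 170 reads in each knockdown sample and 15 to 48 reads in each control sample. Markers of plasma cells, which secrete antibody and carry much ER, were also higher in the knockdown group. Their mean log2 deviation from the control mean, over 6 tested genes, was 2.87, 2.66 and 1.27 in knockdown samples 1 to 3 and 0.80, 0.03 and −0.84 in control samples 1 to 3. Control sample 3 was thus the lowest control for this mean, and also for Igkc, Jchain, Ighm and Cd79a. Mzb1 was lowest in control sample 2, as was Sdc1, which was highest in control sample 3. For Derl3, control samples 1 and 3 were nearly equal, on 45 and 48 reads, and control sample 2 was lowest. The markers differed among themselves. Igkc had 1269, 1401 and 172 FPKM in the knockdown samples, against 196, 42.8 and 8.58 FPKM in the control samples. Igkc, Jchain and Mzb1 had the order of Derl3 among knockdown samples, with sample 2 highest and sample 3 lowest. So had Irf4, Pou2af1, Prdm1 and Tnfrsf17, which were under the filter and not tested. Ighm, Cd79a and Sdc1 had other orders. Sdc1, the marker called, had 3.14, 2.38 and 3.33 FPKM in the knockdown samples, against 0.365, 0.232 and 0.643 FPKM in the control samples. The part of such cells in the Derl3 value was not tested.

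Derl1, another derlin, averaged 30.6 ± 1.56 FPKM in knockdown samples and 25.3 ± 1.11 FPKM in control samples (SD, n = 3 each, adjusted p = 0.0931). Syvn1 (HRD1), the ubiquitin ligase of the route, had 18.4, 15.4 and 17.5 FPKM in knockdown samples and 14.4, 13.8 and 15.0 FPKM in control samples (1.19-fold, adjusted p = 0.169). Its partner Sel1l did not follow, at 18.5, 22.6 and 22.5 FPKM in knockdown samples and 22.1, 22.1 and 22.3 FPKM in control samples (0.958-fold, adjusted p = 0.724). Herpud1, an ERAD adaptor that both arms of the response induce, had 25.9, 41.2 and 21.5 FPKM in knockdown samples and 24.9, 19.9 and 25.1 FPKM in control samples. Knockdown sample 2 was far above the rest and sample 3 lay among the controls, so the groups overlapped (adjusted p = 0.494). Without knockdown sample 2 its log2 fold change was 0.02.

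Of the 5 ERAD genes with a RefSeq window, Syvn1 and Derl3 held an ERSE. Herpud1 held both ERSE-II, searched as ATTGGNCCACG and found in 0.0365% of promoter windows, and the CARE motif of ATF4 described with the next genes. Among chaperones ERSE-II was matched in 1, Dnajb11, 8 to 18 bases after its start. The stretches are shown, with fixed letters in capitals, because the 3 genes carry an ERSE or ERSE-II while Herpud1 alone of them had overlapping groups:
Syvn1 (chr19:6046512-6046570, plus strand): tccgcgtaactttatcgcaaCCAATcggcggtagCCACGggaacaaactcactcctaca
Derl3 (chr10:75893222-75893280, plus strand): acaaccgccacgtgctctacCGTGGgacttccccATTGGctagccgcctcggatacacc
Herpud1 (chr8:94386357-94386407, plus strand): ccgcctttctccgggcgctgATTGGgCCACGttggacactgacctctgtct

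The sensors and transcription factors differed little and in both directions, with none of the 5 called. Calls were rare everywhere, at 1.20% of all genes tested for higher and 0.228% for lower. Eif2ak3, which encodes PERK, had 5.18, 5.16 and 4.91 FPKM in knockdown samples and 4.34, 4.26 and 4.15 FPKM in control samples (1.20-fold, adjusted p = 0.142). Ern1, which encodes IRE1α, had 2.59, 2.69 and 2.37 FPKM in knockdown samples and 1.94, 1.85 and 2.33 FPKM in control samples (1.25-fold, adjusted p = 0.245). For these genes each knockdown sample lay above each control sample, in Ern1 by a narrow margin at control sample 3.

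Xbp1 had 38.2, 47.6 and 32.6 FPKM in knockdown samples and 34.6, 26.7 and 35.4 FPKM in control samples, and its groups overlapped (1.22-fold, adjusted p = 0.348). The values are per gene, so the spliced form of Xbp1 was not analysed here. Atf6 had 6.97, 6.78 and 10.0 FPKM in knockdown samples and 8.21, 8.57 and 8.48 FPKM in control samples, with knockdown values on both sides of the controls (0.941-fold, adjusted p = 0.725). Atf4 mRNA went the other way from the chaperones: Atf4, at chr15:80255184-80257540 on the plus strand of mm10, had 49.8, 57.5 and 47.6 FPKM in knockdown samples, against 67.4, 59.7 and 63.8 FPKM in control samples (0.812-fold, log2 fold change −0.30, SE 0.09, adjusted p = 0.122). Each knockdown sample was below each control sample. ATF4 is regulated largely through translation, which was not measured.

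Among the PERK/ATF4 targets, Asns, the asparagine synthetase, had the smallest p and the lowest ratio. It lies at chr6:7675169-7693254 on the minus strand of mm10. Its level was 21.2, 24.5 and 24.8 FPKM in knockdown samples, against 29.6, 29.2 and 29.97 FPKM in control samples (0.795-fold, log2 fold change −0.32, SE 0.08, adjusted p = 0.0761). The groups did not overlap and the controls lay close together. Chac1, which degrades glutathione, had 2.55, 3.34 and 3.08 FPKM in knockdown samples and 3.83, 3.41 and 3.26 FPKM in control samples, with overlapping groups (0.855-fold, adjusted p = 0.371).

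Phgdh and Psat1, enzymes of serine synthesis that are strong in astrocytes, stood on the other side. Phgdh had 47.8, 33.5 and 35.1 FPKM in knockdown samples and 31.3, 32.2 and 27.6 FPKM in control samples (1.28-fold, adjusted p = 0.218). The groups did not overlap, and knockdown sample 1 was far above the other two; without it the log2 fold change was 0.17. Psat1 had 31.2, 33.4 and 27.8 FPKM in knockdown samples and 29.9, 26.8 and 26.6 FPKM in control samples, and the groups overlapped (adjusted p = 0.385). Astrocyte markers went both ways: of 10, 7 were positive and 3 negative. Aqp4 (2.64-fold, adjusted p = 0.0452) and Gja1 (1.70-fold, adjusted p = 0.0432) rose, while Ntsr2 stood at 0.702-fold (adjusted p = 0.0677) and Aldoc at 0.740-fold (adjusted p = 0.143). Their summed level overlapped, at 916 to 1133 FPKM in knockdown samples and 909 to 1076 FPKM in control samples, but their mean log2 deviation did not, at 0.14 to 0.24 in knockdown samples and −0.08 to 0.09 in control samples. The part of astrocytes in the Phgdh and Psat1 values was not tested.

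The genes most closely tied to prolonged stress did not separate the groups. Ddit3 (CHOP), the pro-apoptotic factor of this arm, had 13.3, 12.9 and 12.3 FPKM in knockdown samples and 12.8, 11.1 and 13.4 FPKM in control samples (log2 fold change 0.04, SE 0.09, adjusted p = 0.822). Ppp1r15a (GADD34), the phosphatase subunit that reverses eIF2α phosphorylation, averaged 5.29 ± 0.861 FPKM in knockdown samples and 4.63 ± 0.763 FPKM in control samples (SD, n = 3 each, adjusted p = 0.540). Nupr1, a stress-induced nuclear protein, had 1.62, 2.13 and 2.97 FPKM in knockdown samples and 1.73, 1.16 and 2.88 FPKM in control samples (adjusted p = 0.730). Trib3, a pseudokinase induced by CHOP, was below the filter, at 0.368 to 0.610 FPKM in knockdown samples and 0.288 to 0.520 FPKM in control samples and on 11 to 23 reads per sample. Of the 7 tested targets 5 had positive and 2 negative log2 fold changes, and 0 were called. Over all genes tested, 1.20% were called higher and 0.228% lower.

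The CARE motif, to which ATF4 binds with a C/EBP partner, was searched as TGATGNAA on both strands and was present in 3.97% of promoter windows. It was found in 4 of the 8 ATF4 targets: in Asns, Chac1 and Nupr1 before the start, and in Trib3 after it. These 8 are members because they are known targets of ATF4, so the share is a description and no test was made. The stretches before the start are shown, with fixed letters in capitals, because CARE is the element through which ATF4 acts. Of the 5 members with a match, Asns and Chac1 had ratios under 1, and Nupr1, Trib3 and Herpud1 had ratios of 1.16, 1.24 and 1.27:
Asns (chr6:7693210-7693252, minus strand): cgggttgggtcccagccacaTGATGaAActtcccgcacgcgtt
Chac1 (chr2:119351029-119351076, plus strand): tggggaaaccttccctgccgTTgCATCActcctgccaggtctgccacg
Nupr1 (chr7:126625553-126625600, minus strand): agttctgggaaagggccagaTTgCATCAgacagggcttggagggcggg

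Asns carries its match 23 to 16 bases before the start. Over the 261 tested genes that hold a CARE and are not members the median log2 fold change was 0.00, and 132 were positive and 129 negative. The XBP1-binding UPRE, searched as TGACGTGG on both strands, was in none of the 29 members' windows and in 0.676% of all windows.

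Other genes of the pathway gave a graded picture. Of 25 tested genes of the translocon and ER export, 3 rose, where 1.20% of all genes tested were called higher. Tram1, which helps chains enter the ER, had 11.4, 12.5 and 11.8 FPKM in knockdown samples and 8.18, 8.20 and 8.38 FPKM in control samples (1.44-fold, adjusted p = 0.0432). Serp1, which protects unfolded proteins at the translocon, rose 1.52-fold (adjusted p = 0.0448), and Kdelr2, a receptor that returns KDEL proteins such as BiP to the ER, rose 1.43-fold (adjusted p = 0.0472). The median of these 25 was 0.12, and 22 were positive, as 53.2% of all genes tested were.

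Txndc5, a disulfide isomerase, was the single gene of 26 other folding genes that was called, at 16.2, 16.8 and 17.3 FPKM in knockdown samples and 12.4, 12.1 and 11.3 FPKM in control samples (1.41-fold, adjusted p = 0.0447). Of all genes tested, 1.20% were called higher. The next of the list by p, Stt3a of the oligosaccharyltransferase, stood at 1.36-fold (adjusted p = 0.0553), and the median of the list was 0.10. Ppib, a prolyl isomerase of the ER, ran against it, at 0.846-fold with groups that did not overlap (adjusted p = 0.121). None of 19 other ERAD genes was called, where 1.20% of all genes tested were called higher and 0.228% lower. Rnf5, a ubiquitin ligase, stood at 1.25-fold (adjusted p = 0.0654), Selenos at 1.19-fold (adjusted p = 0.0786), and the median was 0.04.

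Among 13 tested sensors and regulators outside the members, Creb3l1 and Creb3l2 rose, where 1.20% of all genes tested were called higher. They encode ER-membrane factors of the ATF6 type, which are cut in the Golgi and induce secretory pathway genes. Creb3l1 (OASIS) had 12.6, 6.59 and 12.2 FPKM in knockdown samples and 2.72, 1.93 and 2.78 FPKM in control samples (4.22-fold, log2 fold change 1.68, SE 0.24, adjusted p = 0.0432). Creb3l2 (BBF2H7) had 5.85, 6.23 and 5.49 FPKM in knockdown samples and 3.55, 3.27 and 3.74 FPKM in control samples (1.66-fold, log2 fold change 0.60, SE 0.08, adjusted p = 0.0432). The order of the knockdown samples differed between the genes: sample 2 was lowest for Creb3l1 and highest for Creb3l2. Over the whole list the median was 0.01.

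Further ATF4 targets lay on both sides. Of 24 tested, 13 were positive and 11 negative; their median was 0.03 and limma called 0. Sesn2, which restrains mTORC1 and is also a p53 target, stood at 1.52-fold (adjusted p = 0.0572), and Slc3a2, the heavy chain of amino acid transporters, at 1.27-fold (adjusted p = 0.0638), whereas Atf5, a factor translated in the same way as Atf4, stood at 0.769-fold (adjusted p = 0.0704). Groups did not overlap for 4 of the 24 in each direction, where 18.0% of all genes tested were higher and 11.8% lower in this way. The 12 cytosolic tRNA synthetases, which ATF4 also induces, leaned lower: 10 had negative values, the median was −0.17, and groups did not overlap for 7 with lower and 1 with higher knockdown values, where 11.8% and 18.0% of all genes tested had such values. Cars had 5.83, 6.19 and 5.55 FPKM in knockdown samples and 8.04, 6.80 and 7.95 FPKM in control samples (0.771-fold, adjusted p = 0.0926), Yars stood at 0.830-fold (adjusted p = 0.119), and none of the 12 was called. For both lists, the shares called over all genes tested were 1.20% higher and 0.228% lower.

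**Figure D4:**
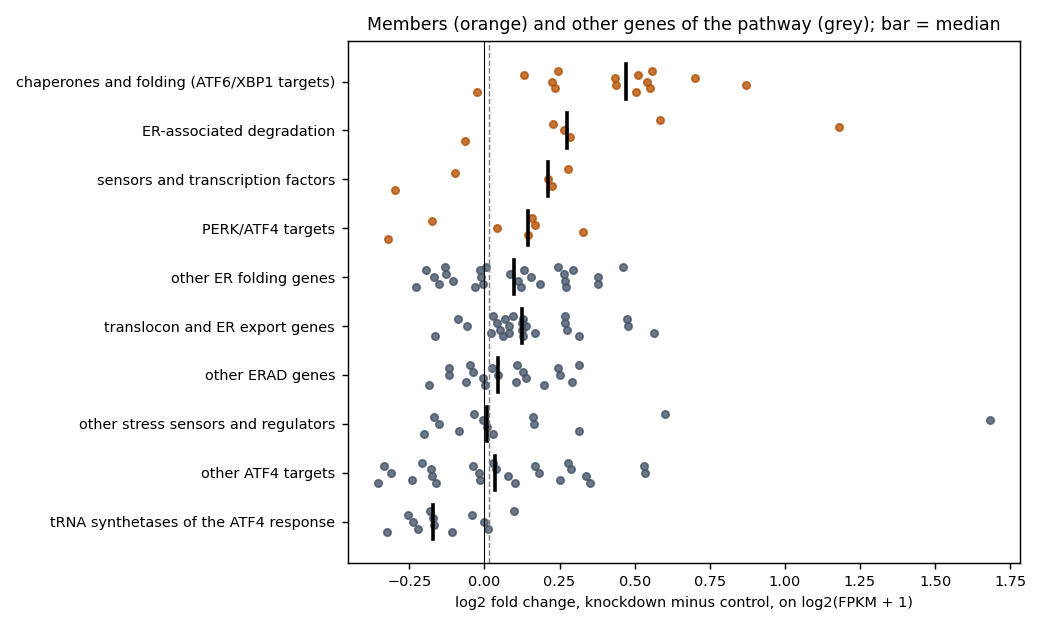
Log2 fold change of every tested gene in the 4 roles of the members (orange) and in 6 lists of other genes of the pathway (grey), with a bar at each median and a dashed line at the median of all genes tested. Medians run from 0.47 for the chaperones to −0.17 for the tRNA synthetases, and the point at the far right is Creb3l1 at 1.68.

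The samples did not carry the chaperone values equally. The mean deviation of the 14 chaperones from their control means, on log2(FPKM + 1), was 0.37, 0.55 and 0.34 in knockdown samples 1 to 3, and 0.00, −0.15 and 0.15 in control samples 1 to 3. Knockdown sample 2 was the highest knockdown sample for 11 of the 14, and control sample 3 the highest control for 13. The same scores for the ATF4 targets were 0.05, 0.05 and 0.05 in the knockdown samples and 0.06, −0.11 and 0.05 in the control samples, so they overlapped. Summed FPKM of the chaperones was 718 to 800 in knockdown samples and 521 to 642 in control samples.

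Markers of other cell types differed with the groups too. All 10 choroid plexus markers, from an epithelium that secretes heavily, had positive log2 fold changes, and their summed level was 1205 to 4685 FPKM in knockdown samples and 51.9 to 3098 FPKM in control samples, none of them at 0 in any sample. Ttr, the defining one, had 4523, 4208 and 1151 FPKM in the knockdown samples, against 43.2, 60.2 and 2983 FPKM in the control samples. The plasma cell markers summed to 253 to 1533 FPKM in knockdown samples and 15.7 to 225 FPKM in control samples; all 6 that were tested had positive values, and none of 10 was at 0. Igkc made up most of that sum. Endothelial markers, 10 of 10 positive, summed to 71.6 to 84.1 FPKM in knockdown samples and 46.3 to 48.6 FPKM in control samples. Fibroblast and mural markers, 10 of 10 positive, summed to 146 to 195 FPKM in knockdown samples and 55.2 to 117 FPKM in control samples, and microglia markers, 10 of 10 positive, to 356 to 547 FPKM in knockdown samples and 211 to 278 FPKM in control samples. Oligodendrocyte markers, 9 of 10 positive, summed to 1142 to 1417 FPKM in knockdown samples and 967 to 1172 FPKM in control samples. Neuronal markers, 8 of 10 negative, summed to 1940 to 2416 FPKM in knockdown samples and 2673 to 2887 FPKM in control samples.

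Choroid plexus markers did not follow the groups in every sample. Knockdown sample 3 had a lower sum than control sample 3 (1205 against 3098 FPKM). In that pair, chosen after its values were seen, 11 of the 14 chaperones were higher in the knockdown sample and 3 lower. The other pairs of a knockdown and a control sample had 12 to 14 higher. Among the 11, Hspa5 (98.0 against 94.0 FPKM) and Creld2 (19.51 against 19.38 FPKM) differed little. The share over all genes was not counted for single pairs. The plasma cell sums of the same pair were 253 FPKM in knockdown sample 3 and 15.7 FPKM in control sample 3. The endothelial, fibroblast and microglial sums were higher in each knockdown sample than in each control sample, and the part of none of these cell types in the chaperone values was tested.

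**Figure D5:**
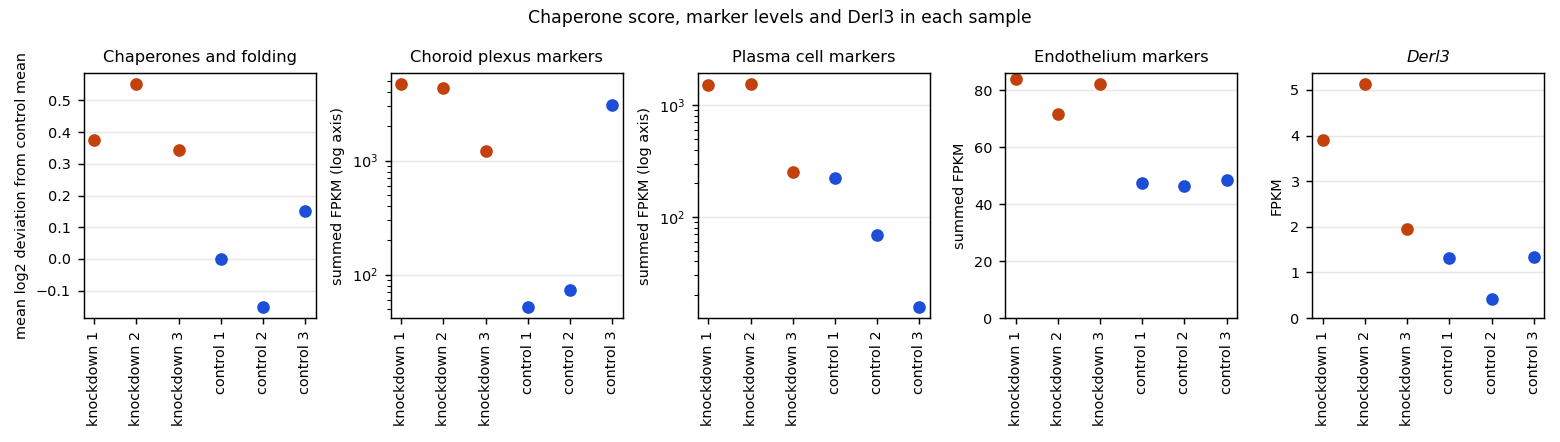
For each of the 6 samples, the chaperone score (mean log2 deviation from the control mean over 14 genes), the summed FPKM of choroid plexus, plasma cell (both on log axes) and endothelial markers, and the FPKM of Derl3; orange marks knockdown and blue control. The chaperone score was 0.37, 0.55 and 0.34 in knockdown samples 1 to 3 and −0.001, −0.15 and 0.15 in control samples 1 to 3. Choroid plexus markers summed, in the same order, to 4685, 4370 and 1205 FPKM and to 51.9, 72.4 and 3098 FPKM.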

How the data were processed

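RNA of 3 knockdown and 3 control hippocampus samples was enriched for poly(A), fragmented and copied with random primers, per the labels' protocols, which record no step that marks the strand. The authors deposited 1 table of FPKM values per gene; the build was mm10, per the submitters' processing notes, and neither aligner nor counter was stated in the labels used here. Reads were recovered from FPKM and GENCODE M21 exon lengths: 90.9% to 91.1% of nonzero values came out whole (tolerance 0.01 reads), and all 6 values did for 12274 of the 14012 genes tested. One read on 1000 bases was worth 0.0553 to 0.0602 FPKM. Limma 3.58.1 in R 4.3.3 (lmFit, eBayes with trend, two-sided) was fitted to log2(FPKM + 1) with the group as its only term and adjusted over all genes tested; the procedure was tested on simulated data. Alternatives changed the pseudocount, filter, scaling, variance trend and replicate block, left out each sample, or used voom on recovered reads. Members and lists were chosen with earlier results of these data known. Values were given by rule for called members, the 4 of smallest p in each role (all in ERAD and sensors) and members under the filter. From other lists they were given for called genes and the 2 of smallest p. Some of these are means, ranges or ratios instead of values per sample. Other genes were named after their values were seen. Without strand, reads of overlapping genes cannot be told apart: such overlap covers 15.7% of the exon bases of Hsp90b1, 9.25% of Manf, 8.05% of Eif2ak3, 4.73% of Ddit3, and less of 6 others.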

Additional observations from a re-analysis of the deposited data

How the results depend on the processing

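Directions held better than calls. Over 17 alternatives the chaperone median ran from 0.38 to 0.56 and the ERAD median from 0.25 to 0.50, while that of the ATF4 targets ran from −0.03 to 0.15 and that of the sensors from −0.10 to 0.27. The median of all genes moved by less than 0.1 under each scaling.

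Calls held under some settings and not others. Members called higher numbered 3 at a pseudocount of 0.1 or 0.5 (Edem1, Pdia3 and Pdia4), 0 with no filter, median-ratio scaling, an equal FPKM sum, quantile normalization, no variance trend or the replicate block, 0 to 0 when any sample was left out, 4 with a filter at 5 FPKM, 6 with voom on recovered reads and 1 when limma was run on only the genes voom could use, an alternative chosen after seeing the data. With voom these were Edem1, Hsp90b1, Manf, Pdia3, Pdia4 and Sdf2l1; 27 members entered that fit. No member was called lower under any of these settings. Over all genes, 168 higher and 32 lower became 290 and 64 at a pseudocount of 0.1, 274 and 64 at 0.5, 170 and 65 with a filter at 5 FPKM, 72 and 24 with median-ratio scaling, 1 and 2 at an equal FPKM sum, 498 and 96 with voom, 106 and 20 for limma on voom's genes, and 0 and 0 with no filter, quantile normalization, no variance trend or the replicate block. Leaving out 1 sample gave 0 to 160 higher and 0 to 30 lower genes, with 0 and 0 without control sample 1, control sample 2 or knockdown sample 1. The 0 counts are of limma; at an unadjusted p under 0.05 the fit to all samples had 2199 higher and 1118 lower genes. The cause was not tested.

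The ERAD median was 0.50 with voom and 0.43 for limma on voom's genes, where Derl1 and Syvn1 could not be fitted. The sensors' median was −0.10 with a filter at 5 FPKM, which leaves 3 of them, and 0.10 after quantile normalization, and 0.14 to 0.23 when a sample was left out. That of the ATF4 targets was 0.044 after quantile normalization and −0.029 to 0.14 when a sample was left out. Signs turned when some samples were left out, with ranges of −0.22 to 0.10 for Dnajb9, −0.11 to 0.026 for Sel1l, −0.029 to 0.39 for Nupr1 and −0.034 to 0.094 for Ddit3, and for Ddit3 after quantile normalization (−0.0049). Without knockdown sample 1, knockdown sample 3 or control sample 1, Dnajb9 stood at 0.10, 0.044 and 0.0057. Sfswap stayed lower throughout, and its call was lost with no filter (−0.77), an equal FPKM sum (−0.79), quantile normalization (−0.80), no variance trend (−0.77) and the replicate block (−0.77), and in 5 of the 6 fits without a sample (−0.84 to −0.73).

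The replicate numbers did not pair the samples: deviations of same-numbered samples from their group means correlated at 0.05, 0.04 and −0.01. Depth limits Trib3, Derl3, Chac1 and Nupr1 most.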
